A study of Mus musculus with 4 samples.

Results

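The genes described here are 10 targets of p53 that carry out or promote cell death: Bbc3, Pmaip1, Bax, Apaf1, Aen, Fas, Tnfrsf10b, Pidd1, Trp53inp1 and Perp. They were taken by name from the 21887 protein-coding genes of the RefSeq table of mouse assembly GRCm38.p6, and all 10 were found there. For each gene every ChIP-seq summit inside it or within 20 kb of either end was listed, a summit being the base of highest pile-up in a called peak. Chromatin came from thymus of mice aged 4 weeks with the germline genotype p53 AD/AD, in which p53 forms dimers in place of tetramers. There were 2 libraries for p53 and 1 for PPAR-alpha, a lipid-sensing nuclear receptor whose targets burn fatty acids, each with its own list, and 1 input library that was not analysed here. Reads were 50 nt long for p53 and input and 75 nt for PPAR-alpha, so the antibody cannot be told apart from the read length. All 4 libraries carry the same genotype and the study's text describes the tissue as basal, so no comparison with tetrameric p53 or with a p53 response to damage was made. The labels do not say whether the numbered p53 libraries came from different mice, so their spread may be technical, and the PPAR-alpha library has no replicate. In whole thymus, fewer cells with a bound site and weaker binding per cell cannot be told apart.

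As background, p53 starts cell death along routes that these genes stand for. Bbc3 (PUMA) and Pmaip1 (Noxa) encode BH3-only proteins that release Bax, which opens the outer mitochondrial membrane, and Apaf1 then assembles the apoptosome that activates caspases. Fas and Tnfrsf10b encode death receptors at the cell surface, Pidd1 nucleates the PIDDosome that activates caspase 2, Trp53inp1 is a p53 cofactor that favours death and autophagy, Perp is a tetraspan membrane protein and Aen a nuclease induced by p53. Thymocytes die readily through p53, and Bbc3 is known as a main effector there.

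There were 3608 and 4767 summits in the lists of p53 replicates 1 and 2, and 4070 in that of PPAR-alpha. The files give no read numbers, so the depth of the libraries is unknown. Thymocyte loci such as Cd4, Rag1 and Tcf7 had a summit inside or within 20 kb in 14 of 14 cases in each list. Loci of other tissues, such as Alb and Myh6, had one in 1 of 8 cases in each list, with 0 of 8 in both p53 lists and 6 of 8 in no list. All protein-coding genes stood at 20.8% and 25.7% in p53 replicates 1 and 2 and 20.4% in PPAR-alpha. In both p53 lists the share was 14.4%, and 36.0% had a summit of any list. With 8 loci, counts of 0 or 1, or of 6 in no list, cannot be set apart from these shares. Both sets of loci were picked with earlier results of these data known.

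The promoters of 3 members are shown for context, since summits of Bbc3 and Bax lay just past the start they lead to and summits of Fas on either side of it, while no summit of these genes lay inside the stretches themselves. Each sequence is the 250 bases before the annotated start, from the RefSeq promoter table of GRCm38.p6, written 5′ to 3′ on the strand of the gene. Capitals mark the copies of the p53 decamer in a match, differing letters included: at Bax with 2 letters differing in each match, which is the setting used below, and at Bbc3 with 3, which passed only a looser one. Fas had no match at either setting.
Bbc3, chr7:16309333-16309582, plus strand: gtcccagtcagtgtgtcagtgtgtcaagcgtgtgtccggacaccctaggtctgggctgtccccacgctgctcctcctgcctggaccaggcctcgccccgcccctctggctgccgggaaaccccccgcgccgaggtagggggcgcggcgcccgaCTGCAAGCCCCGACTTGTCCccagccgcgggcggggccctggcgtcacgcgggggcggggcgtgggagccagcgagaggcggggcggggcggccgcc
Bax, chr7:45466899-45467148, minus strand: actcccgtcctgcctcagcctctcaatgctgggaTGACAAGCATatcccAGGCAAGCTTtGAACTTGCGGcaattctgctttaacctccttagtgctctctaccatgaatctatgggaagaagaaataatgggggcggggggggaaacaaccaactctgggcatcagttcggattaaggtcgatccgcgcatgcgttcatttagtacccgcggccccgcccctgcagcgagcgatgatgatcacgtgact
Fas, chr19:34290409-34290658, plus strand: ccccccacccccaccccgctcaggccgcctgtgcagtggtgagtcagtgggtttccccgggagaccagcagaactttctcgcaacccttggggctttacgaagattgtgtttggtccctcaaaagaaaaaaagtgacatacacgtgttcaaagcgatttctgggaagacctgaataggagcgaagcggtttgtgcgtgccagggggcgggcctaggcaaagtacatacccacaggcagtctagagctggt

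The element searched was a run of 2 copies of the p53 decamer consensus, with 0 to 13 bases between the copies. The core of each copy (C, then A or T, then A or T, then G) had to match, and at most 2 of the other letters could differ over both copies together. The consensus reads the same on both strands. Windows of 300 bases, from 250 before to 50 after a start, were in the table for 6 members: 3 windows for Bbc3, 2 for Aen and 1 each for Bax, Fas, Pidd1 and Apaf1. Bax was the 1 member with a match, in 1 of these 9 windows, where 2.12% of the 32851 windows of all genes held one. At Bax 2 matches overlapped and shared their middle copy. The first, with 5 bases between its copies, lay at chr7:45467090-45467114 and the other, with 1 base between them, at chr7:45467079-45467099. They began 216 and 201 bases before the start. With 3 differing letters allowed, 6.72% of all windows matched, and Bbc3 and Aen joined Bax. The Bbc3 match lay at chr7:16309486-16309505 and began 97 bases before the first Bbc3 start, with no base between the copies. The Aen match, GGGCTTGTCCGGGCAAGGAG at chr7:78895937-78895956 on the plus strand, lay in both of its windows. The windows of Fas, Pidd1 and Apaf1 held none at that setting. A DR1 element, the direct repeat that PPAR receptors bind, searched on both strands with at most 2 letters differing, was in none of the 9 windows and in 3.86% of all windows. These matches describe letters in the windows and were not measured as bound sites. Sequence under the summits themselves was not used here.

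In all, 22 summits were listed, and they belonged to 6 of the 10 members, beside 36.0% of all protein-coding genes with a summit of any list by this rule. Bbc3, Apaf1, Fas, Pidd1 and Trp53inp1 had at least 1 summit in p53 replicate 1. Bax, Fas, Pidd1 and Trp53inp1 had at least 1 in p53 replicate 2, and Bbc3 and Trp53inp1 in PPAR-alpha. By the same rule 20.8% of all protein-coding genes had a summit in p53 replicate 1, 25.7% in replicate 2 and 20.4% in PPAR-alpha. The members thus stood at 5, 4 and 2 of 10, above the background share in both p53 lists and level with it in PPAR-alpha. Fas, Pidd1 and Trp53inp1 were the 3 members present in both p53 lists, beside 14.4% of all genes, and Trp53inp1 was the 1 member present in all 3 lists, beside 9.88%. Fas and Pidd1 were in both p53 lists and not in PPAR-alpha, as were 4.52% of all genes. Within 5 kb the same members were counted in each list, while the share of all genes fell to 14.6% in p53 replicate 1, 18.3% in replicate 2, 14.3% in PPAR-alpha and 9.27% in both p53 lists. Within 50 kb the members stood at 6, 5, 4 and 4 of 10, beside 30.2%, 36.4%, 30.2% and 23.4% of all genes. With 10 members, 1 gene moves a share by 10 percentage points, and the members were picked with earlier results known, so no test was made of these counts. The median length of the members was 13643 bp and that of all protein-coding genes 17169 bp, and the median number of other coding genes within 20 kb was 1 for both.

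**Figure D1:**
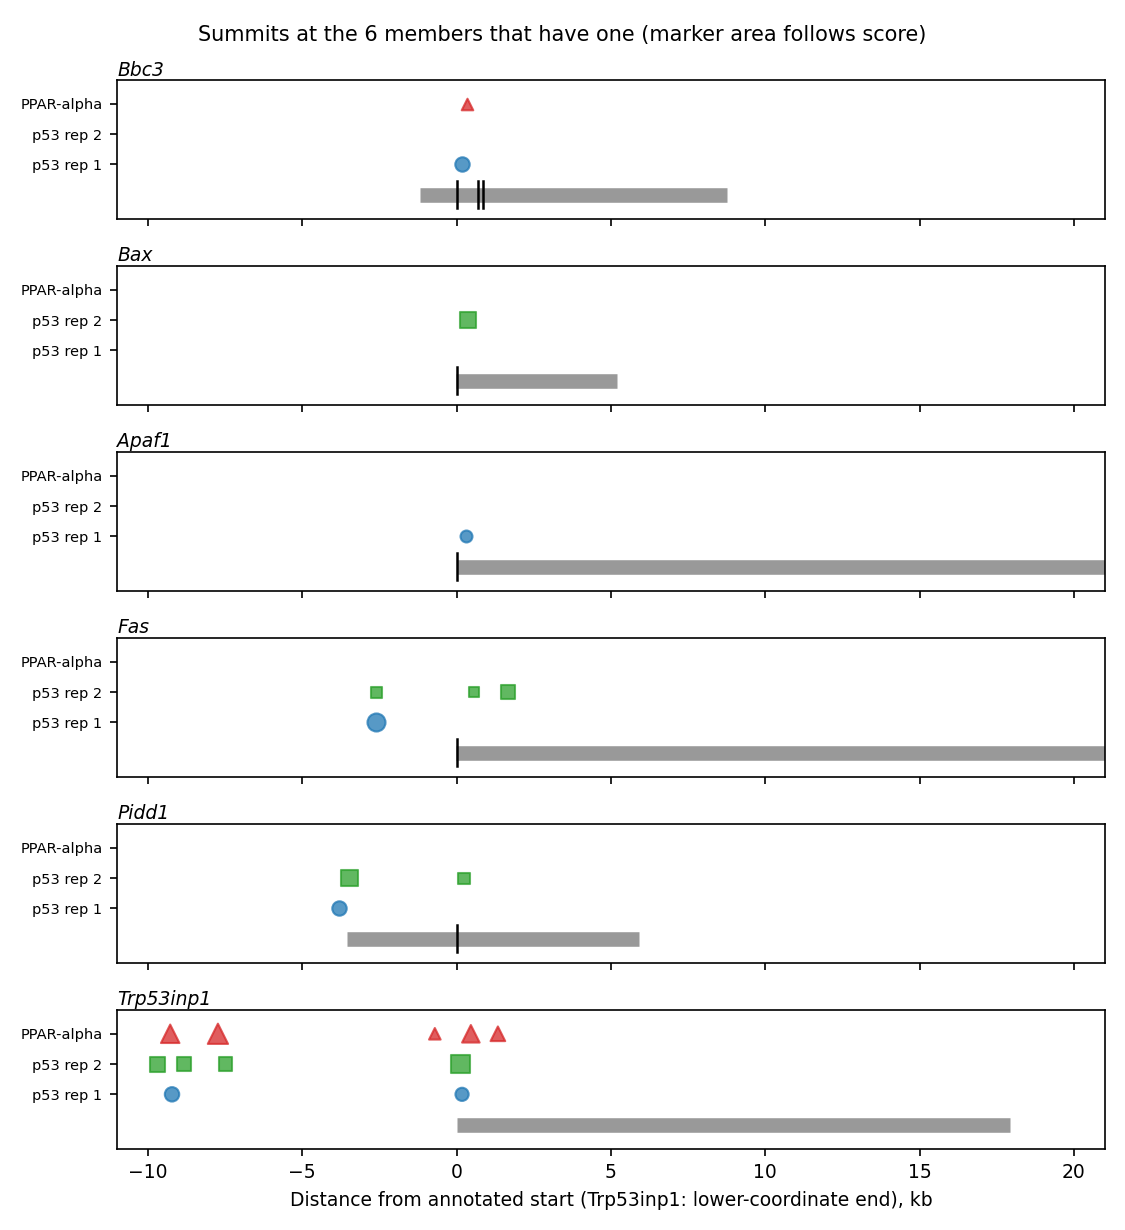
Position of each summit, in kb, at the 6 members that have one, drawn in the direction of transcription from the annotated start (black ticks; for Trp53inp1 from its lower-coordinate end, since its strand is not in the tables used). Grey bars are the genes, cut at the right edge for Apaf1 and Fas, and marker area follows the score. Trp53inp1 has 11 of the 22 summits, in all 3 lists, and Fas and Pidd1 have theirs in the p53 lists.

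**Figure D2:**
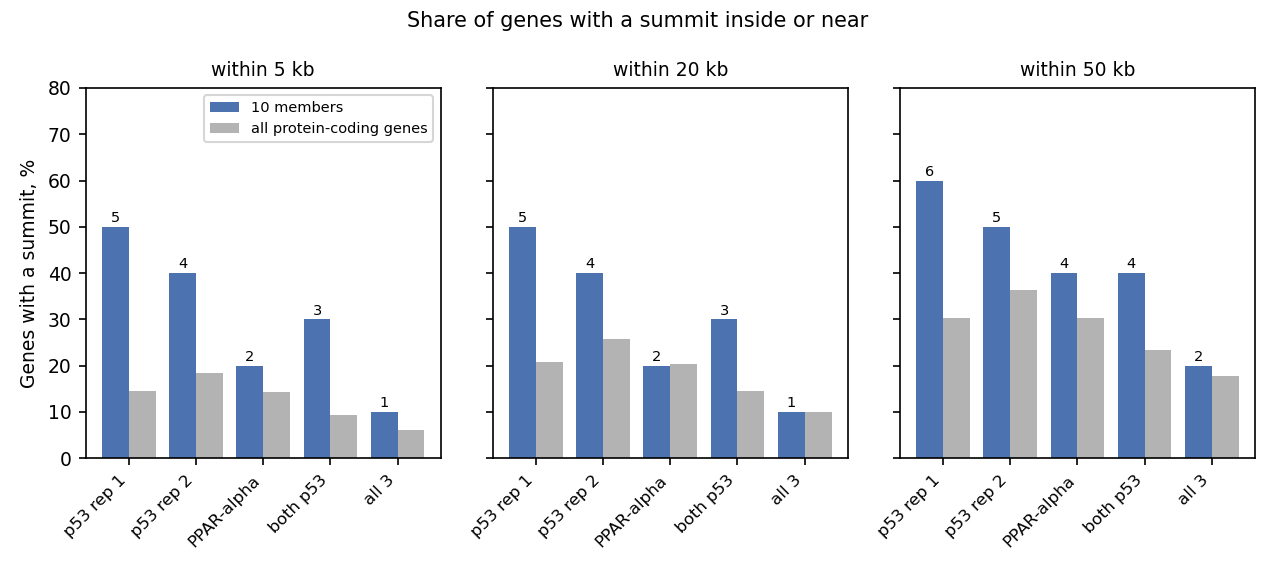
Percentage of genes with a summit inside them or within 5, 20 or 50 kb, for the 10 members (blue bars, with their number on top) and all protein-coding genes (grey bars). Members stand above all genes in both p53 lists at each distance, and level with them for PPAR-alpha at 20 kb.

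At the mitochondrial step, Bbc3 and Bax had a summit in 1 p53 library each, and Pmaip1 in none. Bbc3 spans 16308398 to 16318334 on chromosome 7. Its p53 replicate 1 summit lay inside the gene at 16309749, 166 bases past the first of 3 annotated starts, at 16309583, with a score of 3.99. The score, taken to be a −log10 p- or q-value from its form, serves only to rank summits within a list. This one was in the middle of its list, with 44.7% of summits scoring lower. The PPAR-alpha summit at 16309904 lay 155 bases from it, with a score of 2.57, and 5.77% of that list scored lower. Both summits lay before the other annotated starts of Bbc3, at 16310261 and 16310431. They were 1351 and 1506 bases inside the lower boundary of the gene, which lies upstream of all 3 starts in the promoter table. In p53 replicate 2 the nearest summit was 69478 bp from Bbc3, inside the neighbouring gene Sae1, which encodes a SUMO-activating enzyme subunit. The p53 summit of Bbc3 was thus found in 1 of 2 p53 libraries and did not repeat in the other. The p53 match in the promoter ended 244 bases from the p53 summit and 399 from the PPAR-alpha summit.

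Bax spans 45461695 to 45466903 on chromosome 7 and is transcribed from the minus strand. Its single summit was in p53 replicate 2 at 45466543, inside the gene and 355 bases past the start, with a score of 5.08, above 73.7% of its list. The overlapping p53 matches of the Bax promoter lay 536 and 547 bases from that summit, on the other side of the start. With 3 differing letters allowed, as for the Bbc3 match, Bax had a further match at chr7:45466873-45466903, across its start and 330 bases from the summit. In p53 replicate 1 and PPAR-alpha the nearest summits to Bax were 66075 and 65973 bp away, both inside Snrnp70, a splicing factor gene. Bbc3 and Bax therefore showed the same kind of result from opposite libraries. Each had a summit close behind an annotated start, at Bbc3 the first one in the promoter table, in 1 p53 replicate and none in the other.

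Pmaip1, at 66458604 to 66465558 on chromosome 18, was the member farthest from any p53 summit. The nearest lay 657907 bp away in p53 replicate 1, 779599 bp away in replicate 2 and 1175670 bp away in PPAR-alpha. These summits were inside Sec11c, Mppe1 and Cep76. No other coding gene lay within 20 kb of Pmaip1.

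Apaf1, downstream of the mitochondria, spans 90989311 to 91082743 on chromosome 10, on the minus strand. It had 1 summit, in p53 replicate 1 at 91082444, 299 bases past its start at 91082743. The score was 2.74, and 12.4% of the list scored lower, the lowest rank among the members in that library. Ikbip, which is transcribed in the opposite direction, begins beside Apaf1, and its boundary lay 293 bases from the same summit. The nearest summit in p53 replicate 2 was 88399 bp away, in Tmpo, and in PPAR-alpha 41027 bp away, in Slc25a3. Aen, at 78895927 to 78911209 on chromosome 7, had no summit within 20 kb. The nearest were 159600 bp away in p53 replicate 1, 299647 bp in replicate 2 and 158081 bp in PPAR-alpha.

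The death receptor genes differed from each other. Fas, at 34290647 to 34327775 on chromosome 19, had the closest agreement of the p53 libraries among the members. Replicate 1 placed a summit at 34288032 and replicate 2 at 34288059, which are 27 bases apart, 2627 and 2600 bases before the annotated start at 34290659. Replicate 1 gave it a score of 6.24, above 79.4% of its list and the highest of any member there, whereas replicate 2 gave it 2.37, above 14.7% of its own list. The same site was thus in the upper ranks of 1 p53 list and near the bottom of the other. Replicate 2 had 2 more summits inside Fas, at 34291229 and 34292316, 570 and 1657 bases past the start, with scores of 1.83 and 3.62. The nearest replicate 1 summits were 3197 and 4284 bases from them. As many or more summits by this rule, as Fas had in replicate 2, were found at 2.65% of all genes in that list. No other coding gene lay within 20 kb of Fas, and the nearest PPAR-alpha summit was 1067876 bp away.

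Tnfrsf10b, the gene for the TRAIL receptor DR5, spans 69767472 to 69784411 on chromosome 14 and fell just outside the rule. Its nearest p53 summit was at 69804645 in replicate 1, 20234 bp from the gene, with a score of 3.34, inside the neighbouring gene Rhobtb2. In replicate 2 the nearest lay 34676 bp away, 226 bp from Chmp7, with a score of 5.88, and in PPAR-alpha 281863 bp away. The most distant summit that the rule took in lay 9689 bp from its gene, at Trp53inp1, so no listed summit was near the limit of 20 kb.

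**Figure D3:**
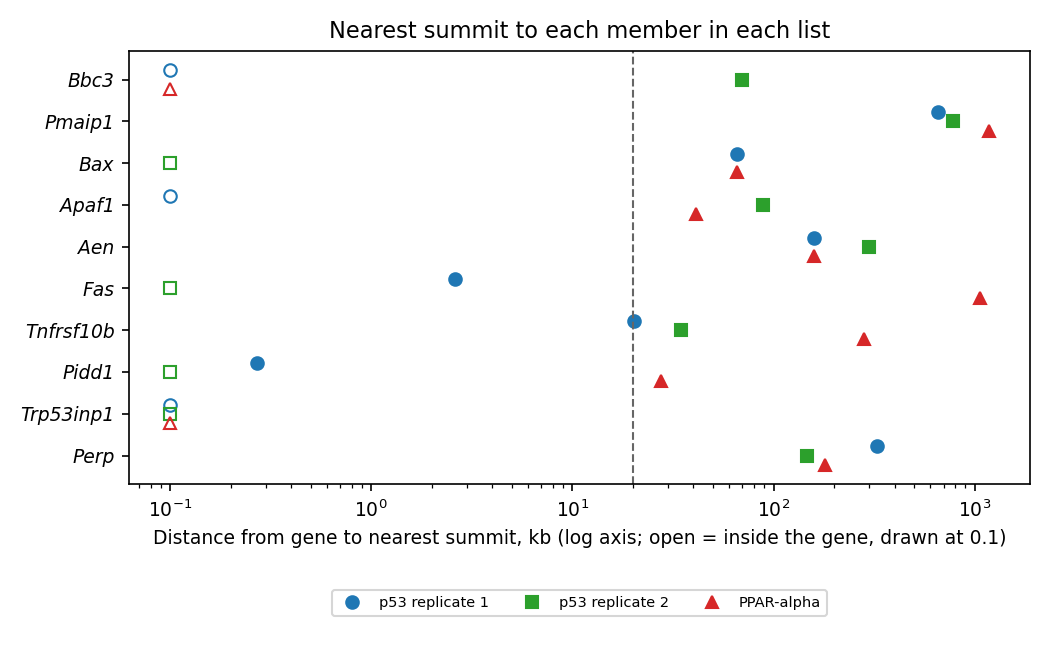
Distance in kb, on a log axis, from each member to the nearest summit of each list, with open markers for summits inside the gene (drawn at the left edge) and a dashed line at 20 kb. Pmaip1, Aen and Perp have no summit of any list within 100 kb, and Tnfrsf10b lies just right of the line in p53 replicate 1.

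Pidd1, at 141438113 to 141447565 on chromosome 7 and on the minus strand, had summits in both p53 lists. Of the 3 summits, 2 were nearer to the start of a neighbour, Rplp2, than to the 1 Pidd1 start in the promoter table. The boundary of Pidd1 at 141447565 is its upstream side and lies beside the Rplp2 start, and Rplp2 is transcribed in the opposite direction. The summit of replicate 1, at 141447836 with a score of 3.99, was 271 bp outside Pidd1 and inside Rplp2, which encodes a protein of the large ribosomal subunit, 185 bases past the Rplp2 start at 141447651. Replicate 2 had a summit at 141447491, with a score of 5.08 and 345 bases from that of replicate 1. It lay 74 bases inside the upstream boundary of Pidd1 and 160 bases before the Rplp2 start, so that boundary was the nearer of the pair. The other replicate 2 summit, at 141443786, lay 239 bases past the annotated Pidd1 start at 141444025, with a score of 2.37, and the nearest replicate 1 summit was 4050 bases from it. Where a summit counted for its nearest coding gene only, Pidd1 left the replicate 1 count, which fell from 5 to 4, and Fas and Trp53inp1 were the 2 members of both p53 lists. The nearest PPAR-alpha summit was 27720 bp away, in Tspan4, with a score of 20.6. Pidd1 had 6 other coding genes within 20 kb, more than any other member.

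Trp53inp1, at 11156441 to 11174379 on chromosome 4, held 11 of the 22 listed summits, with 2 in p53 replicate 1, 4 in replicate 2 and 5 in PPAR-alpha. As many or more summits were found at 5.26%, 1.05% and 0.539% of all genes in these lists. They fell into separate runs. A run of 5 summits over 2043 bp lay at the lower-coordinate end of the gene, and a run of 6 over 2201 bp lay 7488 to 9689 bp outside that end. Both runs held summits of all 3 lists, and Trp53inp1 was the nearest coding gene to each of the 11.

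At the end of the gene, p53 replicate 1 had a summit at 11156618 with a score of 3.34 and replicate 2 at 11156570 with 6.72. They were 48 bases apart, 177 and 129 bases inside the gene. The score in replicate 2 was the highest of any member in that list, above 87.5% of its summits, while that of replicate 1 was above 27.1%. The order of the ranks was the reverse of that at Fas. PPAR-alpha had 3 summits in this run, at 11155736, 11156903 and 11157779, with scores of 2.57, 5.91 and 4.13. The closest of them lay 285 bases from the p53 summit of replicate 1 and 333 from that of replicate 2, beyond the 100 bp used below for a shared position. Whether p53 and PPAR-alpha summits mark separate sites there was not tested. Over the whole list, only 20.8% of replicate 1 summits had a replicate 2 summit within 100 bp.

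In the distal run the closest positions joined p53 and PPAR-alpha. The p53 replicate 1 summit at 11147221 had a score of 3.99, and the PPAR-alpha summit at 11147162, 59 bases away, had 6.55. Replicate 2 had summits at 11146752, 11147610 and 11148953, with scores of 4.33, 3.62 and 3.62. The nearest of them to the replicate 1 summit was 389 bases away. The other PPAR-alpha summit of the run, at 11148708, lay 245 bases from the replicate 2 summit at 11148953. Its score of 7.88 was the highest of the members in PPAR-alpha, above 73.0% of that list.

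Perp, at 18845071 to 18857073 on chromosome 10, had no summit in reach. The nearest lay 327919 bp away in p53 replicate 1, 147197 bp in replicate 2, inside Tnfaip3, and 180638 bp in PPAR-alpha, inside Arfgef3.

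Did the libraries place their summits at the same positions? A position counted as shared where another list had a summit at most 100 bp away. Of the 6 member summits of p53 replicate 1, 2 had a replicate 2 summit within 100 bp, or 33.3%, at Fas and Trp53inp1, beside 20.8% of all replicate 1 summits. From replicate 2 it was 2 of 10, beside 15.7% of all. The single p53 summit shared with PPAR-alpha at that distance was the distal one of Trp53inp1, 1 of 6 in replicate 1 (16.7%, beside 17.4% of all) and 0 of 10 in replicate 2 (beside 15.6%). Within 500 bp, 4 of 6 and 5 of 10 p53 summits met the other p53 list, and 3 of 6 and 4 of 10 met PPAR-alpha. Of all summits of p53 replicates 1 and 2, 43.5% and 33.3% met the other p53 list at that distance, and 38.2% and 35.1% met PPAR-alpha. The wider distance brought in the Rplp2 side of Pidd1 and more of Trp53inp1, and for PPAR-alpha also Bbc3.

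Median scores at the members equalled those of the p53 lists and were near that of the PPAR-alpha list. None of the 22 summits reached 10, which 5.38% and 4.30% of all summits did in p53 replicates 1 and 2, and 16.0% in PPAR-alpha. The member scores ran from 2.74 to 6.24 in replicate 1, with a median of 3.99, which is also the median of that list. In replicate 2 they ran from 1.83 to 6.72 with a median of 3.62, again that of the list. In PPAR-alpha they ran from 2.57 to 7.88 with a median of 5.02, beside 4.70 over the list. Below 10 the scores took few values. The 3414 summits of p53 replicate 1 under 10 had 12 distinct scores, the 4562 of replicate 2 had 12 and the 3419 of PPAR-alpha had 15. Bbc3, Pidd1 and the distal Trp53inp1 summit of replicate 1 thus had the same score of 3.99, together with 542 summits of that list in all. A rank within such a step is not resolved. At scores of 5 or more, 1 member remained in replicate 1 (Fas), 3 in replicate 2 (Bax, Pidd1 and Trp53inp1) and 1 in PPAR-alpha (Trp53inp1), where 7.42%, 9.12% and 11.0% of all genes did. No member had such a summit in both p53 lists.

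**Figure D4:**
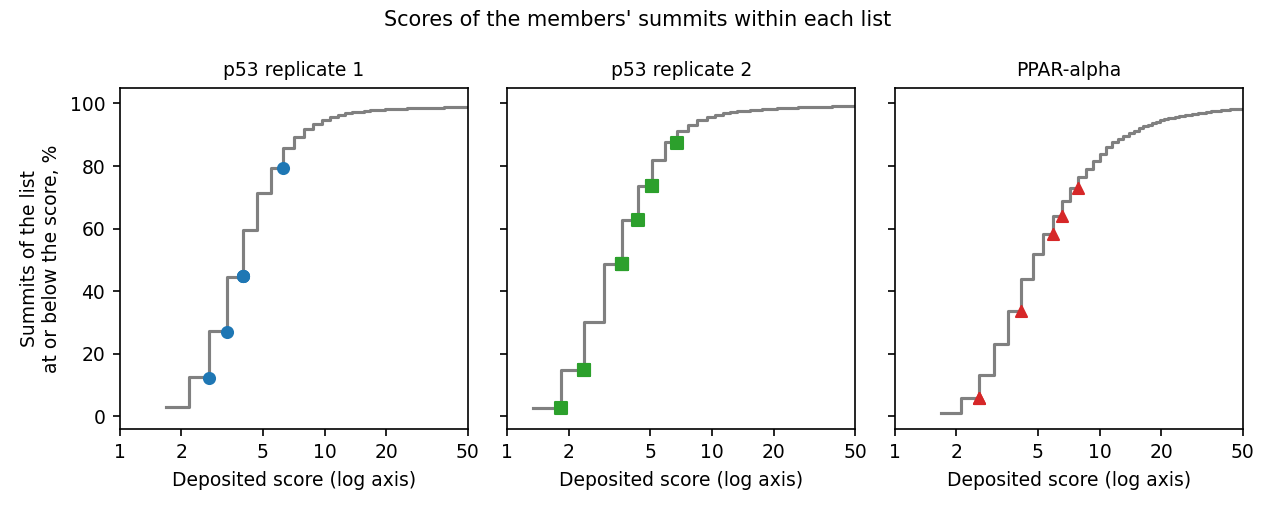
Cumulative percentage of summits at or below each deposited score (grey steps, log axis to 50) in the 3 lists, with the members' summits as markers at the foot of their step, which is the share scoring lower; equal scores overlap. The members span 12.4 to 79.4% in p53 replicate 1, 2.6 to 87.5% in p53 replicate 2 and 5.77 to 73.0% in PPAR-alpha, and none lies at 10 or above.

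How did the summits lie to annotated starts? Each listed summit was measured to the nearest start of any gene in the promoter table, as were all summits on assembled chromosomes with a start there. Within 1 kb of a start there were 8 member summits, 7 downstream of it and 1 upstream, with a median of 269 bases downstream. Measured to the start of the member itself were 6 of them: Bbc3 in p53 replicate 1 and PPAR-alpha, Apaf1 in replicate 1, and Bax, Fas and Pidd1 in replicate 2, from 166 to 570 bases downstream. Both Bbc3 summits were nearest to the first of its 3 starts and lay upstream of its other starts. The other 2 were the Pidd1 summits at the Rplp2 start, 185 bases downstream in replicate 1 and 160 bases upstream in replicate 2. Over all genes of that table, 61.8% and 59.9% of the summits within 1 kb were downstream in p53 replicates 1 and 2, and 57.6% in PPAR-alpha, with medians of 91.5, 68.0 and 68.0 bases. Of the 8 member summits 1, that at the Rplp2 start in replicate 2, fell inside a promoter window, where 29.5%, 31.9% and 31.6% of all summits within 1 kb did. The table holds no start of Trp53inp1, and none of its summits was within 1 kb of another start. With 8 positions over 3 lists, this is a description.

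**Figure D5:**
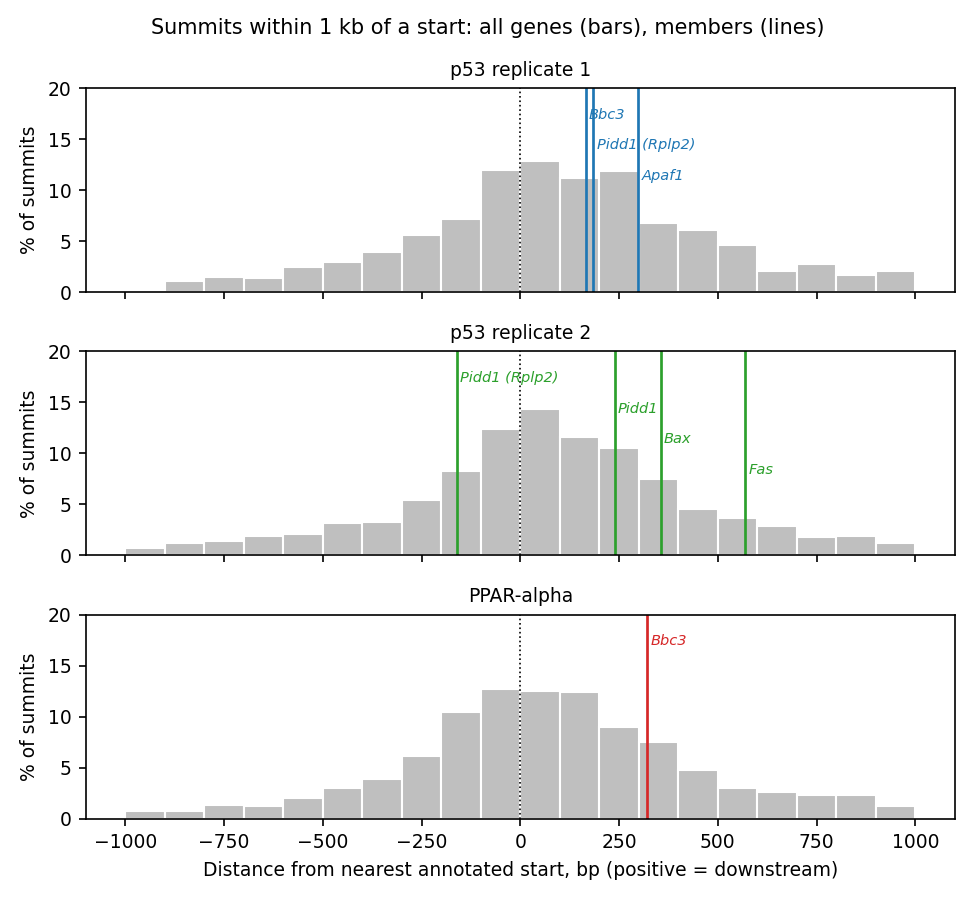
Distance in bases from the nearest annotated start for all summits within 1 kb of one (grey bars, percentage per 100 bases; positive is downstream) and for the member summits (coloured lines). Of the 8 member summits, 7 lie downstream of the start, and the Pidd1 summit of p53 replicate 2 at the Rplp2 start (in brackets) lies 160 bases upstream.

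Other genes of the cell death pathway were read by the same rule, from a list of 32 with further p53 death targets, the BCL2 family, caspases and their adaptors, and p53 cofactors. Of these, 14 had a summit inside or within 20 kb in p53 replicate 1, 10 in replicate 2 and 10 in PPAR-alpha, beside the 20.8%, 25.7% and 20.4% of all genes. No summit of any list was found at 14 of the 32, where 36.0% of all genes had a summit of any list. In both p53 lists there were 7, beside 14.4% of all genes: Triap1, Bid, Bcl2l11, Bcl2l1, Mcl1, Trp53 and Dyrk2. PPAR-alpha had a summit at 5 of them, all but Bcl2l1 and Dyrk2. Over all protein-coding genes, 3152 were in both p53 lists and 2162 of those were also in PPAR-alpha, a similar share. At Dyrk2, a kinase gene whose product phosphorylates p53, the highest scores were 7.07 and 5.08 in p53 replicates 1 and 2, inside the gene but 12897 bp apart. At Bcl2l1, which encodes the survival protein BCL-XL, they were 4.70 and 7.58, inside the gene and 33295 bp apart. Bcl2l11, for the BH3-only protein BIM, had 3.99 and 3.62 inside the gene, 25773 bp apart, and 3.06 in PPAR-alpha. These highest scores thus belong to different positions of each gene. Replicate 2 had 2 summits at Dyrk2 and 3 at Bcl2l1, and its lower ones were not compared with replicate 1. At Bcl2l11 each list had 1 summit. The highest p53 summits of Triap1 and Bid lay 13973 to 17257 bp outside them and were nearest to Srsf9 and Mical3. Between the p53 replicates they were 146 bp apart at Triap1 and 4 bp apart at Bid. The highest p53 summits of Mcl1 lay 13682 and 9612 bp outside, 4070 bp apart, and were nearest to Adamtsl4. At Trp53 itself replicate 1 had 3.34 and PPAR-alpha 13.04 inside the gene, and the highest of replicate 2, with 3.62, lay 13214 bp outside and nearest to Atp1b2. Replicate 2 had 2 summits at Trp53, and the position of the lower one was not read. Mcl1 had 4 summits in replicate 1 and 2 in replicate 2, and its lower ones were not compared either.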

How the data were processed

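ChIP-seq lists of summits were deposited by the authors, 1 for each of 3 libraries, with a score whose form and range fit a −log10 p- or q-value. The submitters' processing notes list MACS2 2.1.2, Bowtie2 2.3.4.2 and Picard 2.9.0 without roles. Those notes name a human build for mouse tissue. On mouse GRCm38.p6, the share of summits within 1 kb of an annotated start was 51.3% and 49.8% for p53 and 43.6% for PPAR-alpha, and genes were assigned on that build. These shares are of the 3530, 4653 and 3977 summits on assembled chromosomes with a start in the promoter table, not of the full lists. The calling threshold, the control and the read numbers were not given in those sources. Had all lists been called against the input, they would share its errors. The counting was done with Python 3.11.15, numpy 2.4.6 and pandas 2.3.3, and the distance and motif steps were tested on simulated data.

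A gene was counted when a summit lay inside it or within 20 kb. All 10 members were named, with every listed or the nearest summit and any nearer gene, and of the other pathway genes those in both p53 lists. The members and lists were chosen with earlier results of these data known. No tests were made. Windows of 5 and 50 kb, scores of 5 or more, scores under 50, boundaries only, the nearest gene only, other sharing distances, single replicates and other motif settings were tried. The planned motif search around summits was not run.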

Additional observations from a re-analysis of the deposited data

How the results depend on the processing

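The count of members with a summit inside or within 20 kb was 5 in p53 replicate 1, 4 in replicate 2, 2 in PPAR-alpha and 3 in both p53 replicates. At scores of 5 or more it was 1 in replicate 1, 3 in replicate 2, 1 in PPAR-alpha and 0 in both p53 replicates. The share of all genes in both p53 replicates was not counted at that score. Within 50 kb PPAR-alpha reached 4 members. With either p53 replicate left out, the count for both replicates became that of the remaining library, 4 or 5. The nearest-gene setting for both replicates, chosen after seeing the data, gave 2. A window of 5 kb gave the same 4 counts as reported, and gene boundaries only or leaving out scores of 50 or more, tried for the single lists, gave the same 3. Of the 16 listed p53 summits, 4 met the other p53 replicate within 100 bp, 4 within 50 bp and 9 within 500 bp, and 1, 0 and 7 met PPAR-alpha. A p53 match was in 1 of 9 promoter windows, 0 with 1 mismatch, 4 with 3 mismatches and 0 with no spacer. No paired analysis was possible because the p53 and PPAR-alpha groups share fewer than 2 replicate numbers and no result comes from a test. The unknown depth limits all absences: a gene without a summit may hold one under the calling threshold.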
